A study of Macaca mulatta with 32 samples.

Results

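The circRNAs described here are all those that the deposited table assigned to 9 ionotropic glutamate receptor genes, GRIA1, GRIA2, GRIA3, GRIA4, GRIK1, GRIK2, GRIK4, GRIN2A and GRIN2B. They were taken by gene symbol and numbered 82 of 52828 circRNAs, from 9 of 8047 host symbols. The genes were listed with earlier results of these data known, and other receptor subunits are counted below among genes of the same synapse. The study sequenced RNase R treated total RNA of healthy rhesus macaques from prefrontal (PFC), posterior cingulate (PCC), temporal (TC), parietal (PC) and occipital (OC) cortex, hippocampal CA1, dentate gyrus (DG) and cerebellar cortex (CB). Each of the 8 regions had 4 libraries, and each library was a pool of RNA from 2 animals of the same age and sex, named 10F, 10M, 20F and 20M for age in years (10 or 20) and sex. The labels give no engineered allele and no treatment for the 8 socially housed animals, which were euthanized with pentobarbital, and the same 4 pairs of animals supplied every region. The 4 libraries of a region are therefore its replicates, but only 2 pools stand behind each age and each sex.

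Ionotropic glutamate receptors are the ion channels that glutamate opens at excitatory synapses. They form 3 classes named after their agonists. AMPA receptors, built from GRIA1 to GRIA4, carry fast transmission, and GRIA2 sets how permeable they are to calcium. Kainate receptors, built from GRIK subunits, act on both sides of the synapse and tune release and excitability. NMDA receptors pair an obligatory GRIN1 subunit with GRIN2 subunits such as GRIN2A and GRIN2B, and they admit calcium only when glutamate is bound and the membrane is depolarized. Circular RNA (circRNA) arises when a downstream splice donor is joined back to an upstream acceptor, which leaves a closed loop that the exonuclease RNase R cannot digest. Neuronal genes are a well-known source of such loops, and each loop is recognised by the sequencing reads that cross its back-splice junction.

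The values are TPM as the authors scaled them, that is, back-splice reads multiplied by 1 constant per library, so a level carries no gene length. No value stood for 1 read, and a 0 means fewer than 2 reads. The libraries held from 18813 to 894932 back-splice reads. The shallowest was CB_10F, where 2 reads already equalled 37.4 TPM, against 0.576 TPM in CA1_20M. Across the 32 libraries the number of receptor circRNAs found followed depth with a Spearman correlation of 0.39, and with 0.66 in the 27 libraries left after setting aside PFC_20F, PCC_20F, PC_10M, CA1_20M and DG_20M. Those 5 libraries stood apart from the rest in the study's own sequencing statistics, so they are named where they carry a value, and several means and differences are also given without them. In bulk tissue, fewer cells of a type and less RNA per cell cannot be told apart.

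As a check of the regional labels, 8 of 12 cerebellar neuron markers were hosts of circRNAs, and their summed level ran from 317 to 786 TPM in CB, from 0 to 134 in hippocampus (CA1 and DG) and from 0 to 165 in neocortex. Most of the CB sum was CADPS2, at 242 to 674 TPM in CB, up to 119 in hippocampus and up to 86.9 in neocortex. The other markers of that list were uneven. GABRA6, the receptor subunit of cerebellar granule cells, was above 0 in 2 of 4 CB libraries and at 0 in every library outside CB. ZIC1 and RORA, transcription factors of cerebellar neurons, went against the label, since both were at 0 in all CB and hippocampal libraries and above 0 in 1 and 7 of 20 neocortical ones. On the list used for forebrain excitatory neurons, RORB and SLC17A7 were at 0 in every CB and hippocampal library and above 0 in 11 and 6 neocortical ones. Neither therefore set hippocampus apart from CB. CUX2, from the same list, was found in all 3 areas, at 0 to 21.0 TPM in CB, 0 to 120 in hippocampus and 106 to 489 in neocortex. All 4 astrocyte markers were at 0 in CB, and their sum reached 27.3 TPM in hippocampus and 34.5 in neocortex. The 6 oligodendrocyte markers in the table summed to 0 to 9.02 TPM in CB, 0 to 91.0 in hippocampus and 0 to 38.3 in neocortex, and general neuronal markers reached 42.1, 32.7 and 58.5 TPM. The markers of dentate granule cells and of microglia hosted no circRNA, so those identities could not be checked. Differences of the receptor circRNAs between these regions come beside these differences in the marker sets, whose part in them was not tested.

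Receptor circRNAs were scarce. The 82 circRNAs carried 3346 of 7159279 back-splice reads, or 0.0467%, while they made up 0.155% of the circRNAs. Their median was 9 reads, against 14 for all 41015 circRNAs with a host symbol. Of the 82, 52 (63.4%) were found in a single library, against 53.1% of all circRNAs with a host symbol, and none was found in all 32 libraries. The study's expression filter, which keeps a circRNA with 30 reads in all or with repeated detection within areas, kept 21 of the 82. GRIA1 was the deepest host with 1138 reads and ranked 945 among 8047 hosts by reads. GRIN2B had 538 reads, GRIN2A 515, GRIK2 391, GRIK4 335, GRIA2 290, GRIA3 84, GRIK1 46 and GRIA4 9. GRIA4 was thus the only one of the 9 genes left out of the test on gene sums, which required 30 reads.

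**Figure D1:**
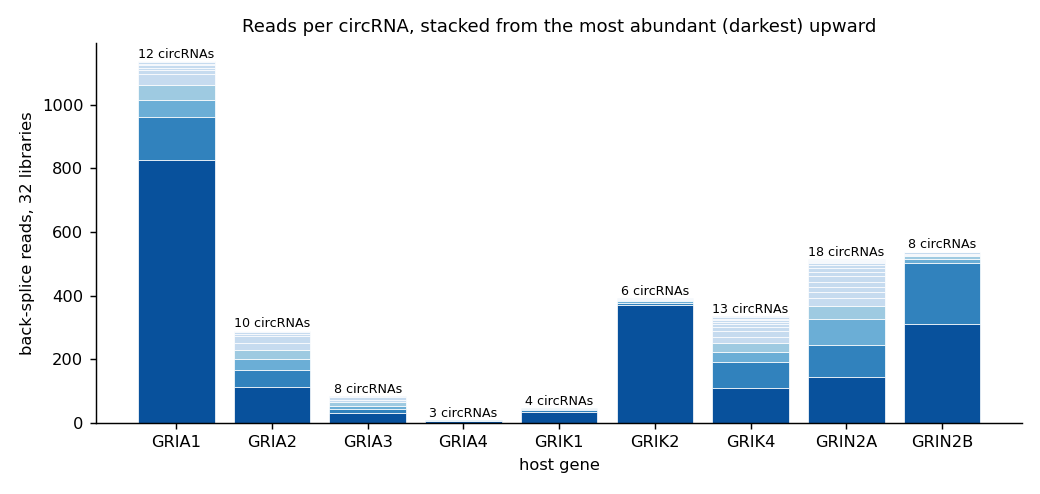
Back-splice reads over all 32 libraries (vertical axis) for each host gene (horizontal axis), with 1 block per circRNA stacked from the most abundant upward. A single circRNA makes up 371 of 391 reads of GRIK2, while the 515 reads of GRIN2A are spread over 18 circRNAs.

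The genes differed in how far 1 loop stood for the whole gene. GRIK2 was nearly a single-circRNA gene. Its exonic circRNA at chr4:97571226-97576228 on the plus strand, in the coordinates of the deposited table, held 94.9% of the gene's reads and was found in 22 libraries. In GRIA1, the circRNA at chr6:150059750-150060120 (plus strand) held 72.6% of the reads and was found in 18 libraries. The leading circRNA of GRIN2B, chr11:13977389-13985420 on the minus strand, held 57.4% and was found in 20 libraries. In GRIN2A the leading circRNA, chr20:9954919-9982117 on the minus strand, held no more than 28.2% and was found in 8 libraries. GRIK4 spread its reads likewise, with 32.8% in an intronic circRNA at chr14:119135085-119216950 that was found in 12 libraries. That one spanned 81866 bases, the longest span among the 82. The leading circRNAs of GRIA2 (chr5:149533862-149539169, 114 reads, 10 libraries), GRIA3 (chrX:121610509-121614367, 30 reads, 2 libraries) and GRIK1 (chr3:16963765-16974197, intronic, 33 reads, 1 library) were thinner still.

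Most of the loops reused splice sites. Of the 82 circRNAs, 62 (75.6%) shared a start or an end with another circRNA of the same gene, close to the 73.2% of all circRNAs with a host symbol. In GRIN2A, 4 circRNAs began at position 9954919. In GRIA1, 3 circRNAs began at 150059750 and carried 839 reads together, and 2 ended at 150060120. In GRIK2, 3 circRNAs began at 97571226, and in GRIN2B, 3 ended at 13985420. These circRNAs overlap in sequence, so they are not independent measurements of their gene.

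A pair of AMPA receptor genes gave loops of equal length. The leading GRIA1 circRNA and the GRIA2 circRNA at chr5:149561568-149561938 each spanned 371 bases, a span shared by 6 of 52828 circRNAs in the table, and no other span was shared within the 82. The GRIA2 loop had 32 reads in 3 libraries, at 6.05 TPM in CA1_20M, 4.39 in DG_20M and 3.89 in PC_10F. The CA1_20M and DG_20M libraries were also those with the highest GRIA1 loop, at 137 and 62.4 TPM. Both belong to the 5 libraries that stood apart. Whether the pair arises from corresponding exons was not tested, since no genome sequence was used here.

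By annotation, 63 of the 82 circRNAs (76.8%) were exonic and 19 (23.2%) intronic, against 83.7% and 16.3% of all circRNAs with a host symbol. Exonic loops held 92.8% of the receptor reads, against 91.8% in the table. The median span was 10162 bases, against 6292. Of the 82, 4 (4.88%) lay on the strand opposite to most circRNAs of their gene, namely 2 of GRIA3 and 2 of GRIN2A, against 1.40% of all circRNAs with a host symbol. These may belong to another transcript, and they were counted with the gene as the table lists them.

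**Figure D2:**
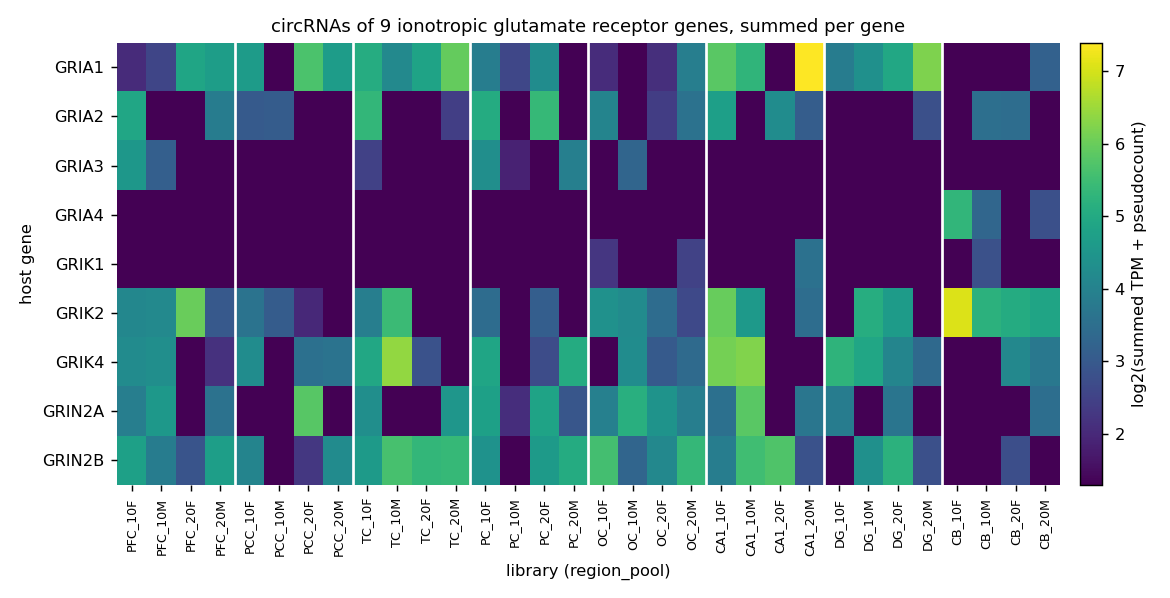
Summed circRNA level of each of the 9 genes (rows) in each of the 32 libraries (columns, grouped by region), as log2(TPM + 2.455). GRIA4 is above 0 only in 3 CB libraries, GRIA3 only in 7 neocortical libraries, and GRIK2 is above 0 in all 4 CB libraries.

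CB against the other regions gave the largest differences in value for the receptor genes. Circular GRIK2 was at its highest mean level in CB, circular GRIN2B and GRIA1 were at 0 in 3 of the 4 CB libraries, and circular GRIA4 was found nowhere else. GRIK2, GRIN2B and GRIA1 did not pass the test across all genes with 30 reads, and GRIA4, with 9 reads, was not in it. That test was limma's moderated test on log2(TPM + 2.455) with region, age and sex as terms and Benjamini-Hochberg adjustment. Of the 5425 host genes tested, 5.03% were called at an adjusted p under 0.05, and of the 8 receptor genes tested 0 were called. An unadjusted p under 0.05 was reached by 3 of the 8 and by 825 of the 5425. Of the 17050 circRNAs tested, 2.47% were called, and of the 21 receptor circRNAs 0 were called. Here 3 of the 21 and 1723 of the 17050 had an unadjusted p under 0.05. At these background shares, a count of 0 among 8 or 21 does not set the receptor genes apart from other hosts. The median log2 difference was -0.71 over the 8 genes and -0.07 over all host genes tested.

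GRIK2, a kainate receptor subunit, was summed to 131 TPM in CB_10F, 34.6 in CB_10M, 30.4 in CB_20F and 26.4 in CB_20M. The first of these values rests on 7 reads and the others on 23, 28 and 12. Outside CB the gene ranged from 0 to 61.9 TPM with a median of 8.49, and 8 of 28 libraries were at 0. The groups overlapped, because 4 of the 28 libraries lay above the lowest CB library, but none reached the highest. The means were 55.6 ± 50.4 TPM in CB (SD, n = 4) and 13.5 ± 17.0 elsewhere (SD, n = 28). The log2 difference was 2.30 (SE 0.81, limma adjusted p = 0.0851). Without CB_10F it was 2.08 (adjusted p = 0.273). The single circRNA chr4:97571226-97576228 accounted for nearly all of this, with 93.6, 31.6, 30.4 and 26.4 TPM in the 4 CB libraries and a log2 difference of 2.31 (SE 0.86, limma adjusted p = 0.169).

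GRIN2B, an NMDA receptor subunit that dominates in the immature forebrain and persists there, lay at the other end. It was at 0 in CB_10F, CB_10M and CB_20M and at 4.35 TPM in CB_20F, which was 4 reads. Outside CB it ranged from 0 to 50.3 TPM with a median of 18.5, and 25 of 28 libraries were above 0. Of the 28, 24 lay above the highest CB library, so the listed values overlapped only through the lowest forebrain libraries. The 0 of CB_10F stands for under 37.4 TPM per circRNA. The means were 1.09 ± 2.18 TPM in CB (SD, n = 4) and 21.0 ± 15.8 elsewhere (SD, n = 28). The log2 difference was -2.42 (SE 0.80), and the limma adjusted p of 0.0576 missed the threshold. This was the smallest adjusted p among the 8 receptor genes with 30 reads in the 4 comparisons of that fit. Without the 5 libraries that stood apart it was 0.00469, with a log2 difference of -2.80, and without CB_10F it was 0.177. In those 5 libraries GRIN2B never exceeded 4.89 TPM, whereas its median in the other 27 was 18.8.

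GRIA1, an AMPA receptor subunit central to hippocampal plasticity, was at 0 in CB_10F, CB_10M and CB_20F and at 6.60 TPM in CB_20M, from 3 reads. Outside CB it ranged from 0 to 166 TPM with a median of 17.4, and 19 of 28 libraries exceeded the highest CB library. The log2 difference was -2.20 (SE 0.83, limma adjusted p = 0.115), and -1.93 without the 5 libraries that stood apart (adjusted p = 0.194). The 371-base loop was at 0 in all 4 CB libraries and above 0 in 18 of the 28 others. In CB_10F a 0 stands for under 37.4 TPM per circRNA, a limit above the median of the gene outside CB. GRIN2A had the same sign. It reached 8.79 TPM in CB_20M and 0 in the other 3 CB libraries, against a median of 10.3 TPM elsewhere, with a log2 difference of -1.40 that did not pass (limma adjusted p = 0.486).

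GRIA4, the AMPA receptor subunit known for its expression in cerebellar granule cells and Bergmann glia, was listed only in CB. Its level was 37.4 TPM in CB_10F, 7.51 in CB_10M, 0 in CB_20F and 4.40 in CB_20M, and all 28 libraries outside CB were at 0. These levels stood for 2, 5 and 2 reads. Each came from a different circRNA. They lay at chr14:104357946-104358100, chr14:104216094-104217611 and chr14:104467537-104509560, all exonic and sharing no splice site. No circRNA of GRIA4 was seen in more than 1 library. With all 8047 host genes tested and no read minimum, limma called GRIA4 higher in CB (adjusted p = 0.000157, 3.33% of host genes called). An exact permutation of the 4 CB libraries among all 32, two-sided over 35960 choices and run after the data were seen, gave p = 0.000806 and, adjusted over the same 8047 genes, 0.0503, with 1.40% called. That permutation p is the lowest possible for a gene above 0 in 3 libraries, so it could not have fallen further. On 9 reads in all, these tests fell on either side of the threshold and do not decide the question. No fold is given against libraries at 0.

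**Figure D3:**
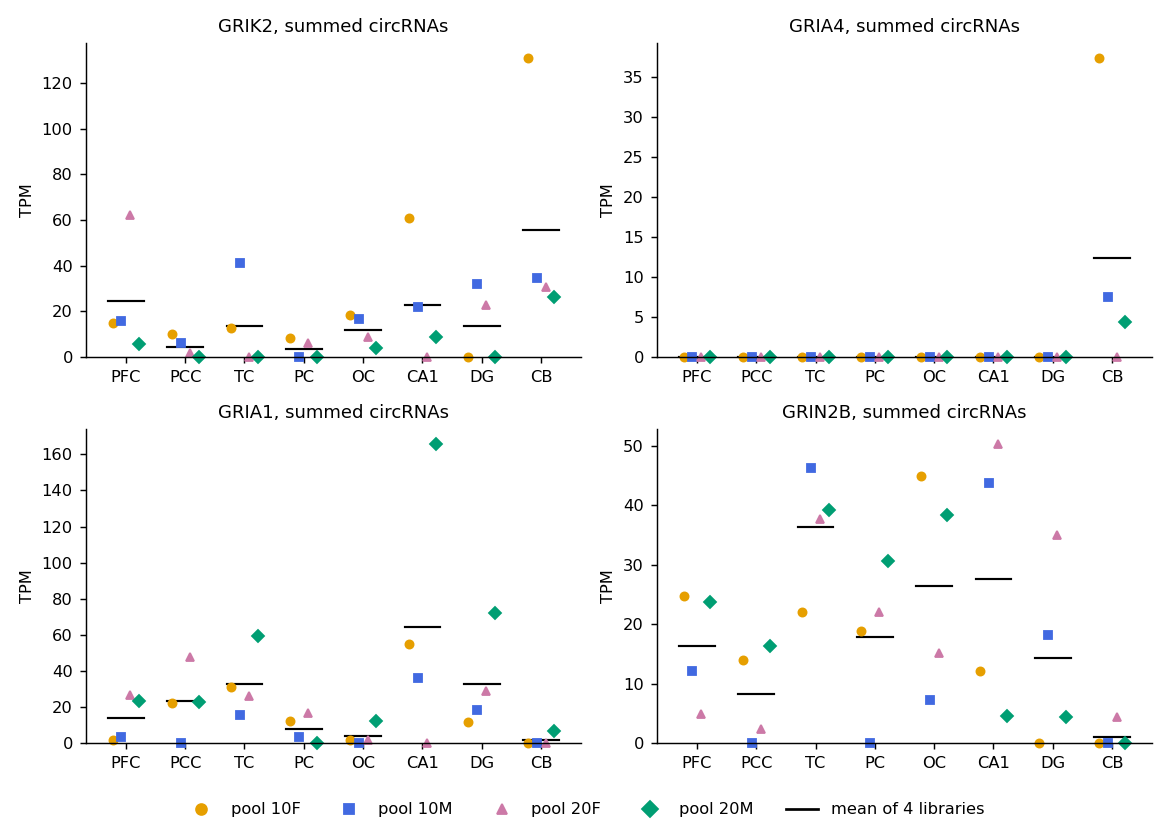
Summed circRNA level in TPM (vertical axes, linear, from 0) of GRIK2, GRIA4, GRIA1 and GRIN2B by region, with 1 point per library coded by pool and a bar at the mean of the 4 libraries. In CB, GRIK2 lies between 26.4 and 131 TPM and GRIA1 and GRIN2B at or below 6.60 TPM, and GRIA4 is at 0 in all 28 other libraries.

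Genes of the same synapse were examined alongside. They were 44 other receptor subunits, auxiliary subunits and postsynaptic scaffold proteins, of which 30 hosted circRNAs and 24 had 30 reads. In CB, 4 of the 24 fell by limma, where 2.18% of all host genes tested fell. All 4 were among the 15 scaffolds. Of the 4 other receptor subunits tested, 1 was called higher in CB, as were 155 of 5425 host genes. Of 5 auxiliary subunits 0 passed, with 1 at an unadjusted p under 0.05, as had 825 of 5425 host genes. LRRC7, which encodes the scaffold densin-180, was at 0 in all 4 CB libraries and ranged from 16.9 to 259 TPM in the 28 others (adjusted p = 3.8e-09). The listed values did not overlap, but a 0 in CB_10F stands for under 37.4 TPM per circRNA. LRRC7 was below that limit in PC_10M, DG_20F, DG_10M and CA1_20F, at 16.9, 22.6, 31.8 and 33.5 TPM. GRIP1, which binds AMPA receptor tails, fell with a log2 difference of -3.32 (adjusted p = 5.88e-05), and MAGI2, a membrane scaffold, fell with a log2 difference of -2.46 (adjusted p = 0.00464). The fourth was DLG2, a PSD-95 relative, at -2.16 (adjusted p = 0.0266). Without CB_10F, the shallowest library, where MAGI2 and DLG2 were at 0, LRRC7 and GRIP1 still passed (adjusted p = 2.93e-07 and 0.00397), but MAGI2 at -1.31 and DLG2 at -1.20 did not (adjusted p = 0.308 and 0.459). The kainate receptor auxiliary subunit NETO2 had 133 ± 102 TPM in CB (SD, n = 4) and 42.2 ± 35.9 elsewhere (SD, n = 28), which did not pass (adjusted p = 0.135). The median log2 difference over the 24 genes was -0.48.

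Hippocampus was compared with neocortex as 8 libraries against 20. None of the 8 receptor genes was called by limma, against 1.51% of all host genes, and 1 had an unadjusted p under 0.05. None of the 21 receptor circRNAs was called, against 0.235% of all circRNAs, and 4 had an unadjusted p under 0.05. Over all features, 608 of 5425 host genes and 1177 of 17050 circRNAs had an unadjusted p under 0.05. When limma was instead run with voom weights on the recovered reads, 5 of the 21 were called higher in hippocampus, but 2198 of 17050 circRNAs were called there, 2089 of them higher. The median log2 difference was -0.00495 over the 8 genes and -0.23 over all host genes tested.

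GRIA1 was the receptor gene with an unadjusted p under 0.05. Its level in CA1 was 54.8 TPM in 10F, 36.4 in 10M, 0 in 20F and 166 in 20M. In DG it was 12.03, 18.2, 28.8 and 72.0 TPM in the same order. In neocortex it ran from 0 to 59.4 TPM with a median of 13.9. The ranges overlapped widely, and only CA1_20M and DG_20M exceeded every neocortical library. The log2 difference was 1.31 (SE 0.65, limma adjusted p = 0.439). It was 0.92 without the 5 libraries that stood apart, to which CA1_20M and DG_20M belong. CA1_20M alone supplied 575 of the gene's 1138 reads, or 50.5%. The 371-base loop was found in all 4 DG libraries, in 2 of 4 CA1 libraries and in 12 of 20 neocortical ones.

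Isoforms of the same gene were found in different sets of libraries. GRIN2B gave 2 well-covered loops with no splice site in common. The circRNA chr11:13977389-13985420 was found in 14 of 20 neocortical libraries and in all 4 of CA1, at 12.2, 43.7, 50.3 and 4.61 TPM in 10F, 10M, 20F and 20M. The circRNA chr11:14120231-14120829 (193 reads, 599 bases) was found in 13 of 20 neocortical libraries and in none of CA1. In DG it was found only in 20F, at 20.5 TPM, and in CB nowhere. Its log2 difference between hippocampus and neocortex was -1.09 (SE 0.54, limma adjusted p = 0.702). GRIK4, another kainate subunit, was split in a similar way. Its intronic circRNA chr14:119135085-119216950 was found in 5 of 8 hippocampal and 6 of 20 neocortical libraries, with 36.1 TPM in DG_10F as the highest value and a log2 difference of 1.24 (SE 0.53, limma adjusted p = 0.533). Its exonic circRNA chr14:119312555-119319949 (80 reads) was found in 8 of 20 neocortical libraries, up to 28.3 TPM in TC_10F, and in none of the 12 hippocampal and CB libraries (limma adjusted p = 0.718). Neither pair passed, and the difference between isoforms was not itself tested. In CA1_10F, CA1_10M and CA1_20F, 2 reads equalled 6.09, 7.28 and 8.37 TPM, and in DG_10F and DG_10M 12.03 and 9.09 TPM. Some neocortical values were lower. The 599-base GRIN2B loop was at 2.44 TPM in PCC_20F and the exonic GRIK4 loop at 5.69 in OC_20F. Such levels would not have been listed in those libraries, and the part of depth was not tested. The second circRNA of each pair was picked after its values had been seen.

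**Figure D4:**
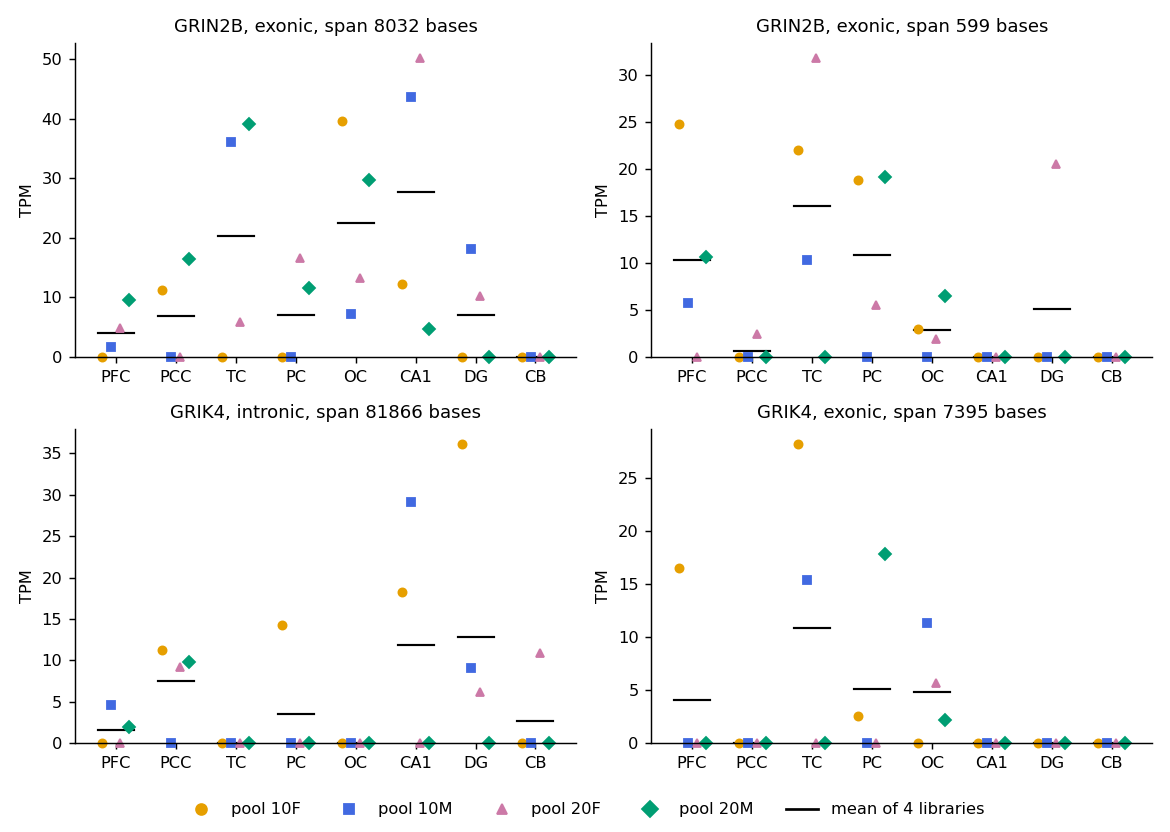
Level in TPM (vertical axes, linear, from 0) of 2 circRNAs of GRIN2B and 2 of GRIK4 by region, with 1 point per library coded by pool and a bar at the mean of the 4 libraries. The GRIN2B loop of 8032 bases is above 0 in all 4 CA1 libraries and the one of 599 bases in none, and the exonic GRIK4 loop is at 0 throughout CA1, DG and CB.

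GRIA3, an X-linked AMPA receptor gene, was found in 7 of 20 neocortical libraries and in none of the 12 from hippocampus and CB. The positive values were 20.7 TPM in PFC_10F, 6.35 in PFC_10M, 3.14 in TC_10F, 17.5 in PC_10F, 1.21 in PC_10M, 12.8 in PC_20M and 7.25 in OC_10M. In CA1_10F, DG_10F and CB_10F, 2 reads equalled 6.09, 12.03 and 37.4 TPM, so several of these levels would have fallen under the listing limit there. The values in PC_20M and OC_10M came wholly from the pair of intronic circRNAs on the opposite strand. Without that pair, a count added after the data were seen, GRIA3 had 67 reads and was found in 5 libraries, all of them at 10 years. They include PC_10M, which stood apart. With all circRNAs of the gene counted, the hippocampal difference did not pass (limma adjusted p = 0.468). Neither did the difference between 20 and 10 years (log2 difference -0.58, limma adjusted p = 0.827). GRIK1 was found in 4 libraries, at 2.37 TPM in OC_10F, 3.24 in OC_20M, 9.51 in CA1_20M and 4.51 in CB_10M. GRIA2, the subunit that limits calcium entry, was at most 39.4 TPM (PC_20F), and it was above 0 in 11 of 20 neocortical, 4 of 8 hippocampal and 2 of 4 CB libraries.

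Ordered by mean level, GRIA1 ran from CA1 at 64.2 ± 71.4 TPM through TC, DG, PCC, PFC and PC to OC at 4.02 ± 5.66 and CB at 1.65 ± 3.30 (SD, n = 4 each). Without CA1_20M the CA1 mean was 30.4 ± 27.9 TPM (SD, n = 3), below the 33.05 ± 18.8 of TC (SD, n = 4), and without DG_20M the DG mean was 19.7 ± 8.46 (SD, n = 3). GRIN2B ran from TC at 36.3 ± 10.3 through CA1, OC, PC, PFC and DG to PCC at 8.23 ± 8.21 and CB at 1.09 ± 2.18. GRIK4 was highest in CA1 at 34.9 ± 40.4 and lowest in CB at 6.55 ± 7.76, and GRIN2A was highest in OC at 19.4 ± 9.63 and lowest in CB at 2.20 ± 4.40. Without CA1_20M, where GRIK4 was at 0, its CA1 mean was 46.6 ± 40.5 (SD, n = 3). For each of the 9 genes, all 7 pairs of neighbouring regions in its order overlapped in range, so the order of neighbours is not resolved by 4 libraries. All 9 genes together summed to 182 TPM on average in CA1, 132 in TC and 61.1 in PCC, and to 175 in CA1 without CA1_20M and 43.3 in PCC without PCC_20F.

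**Figure D5:**
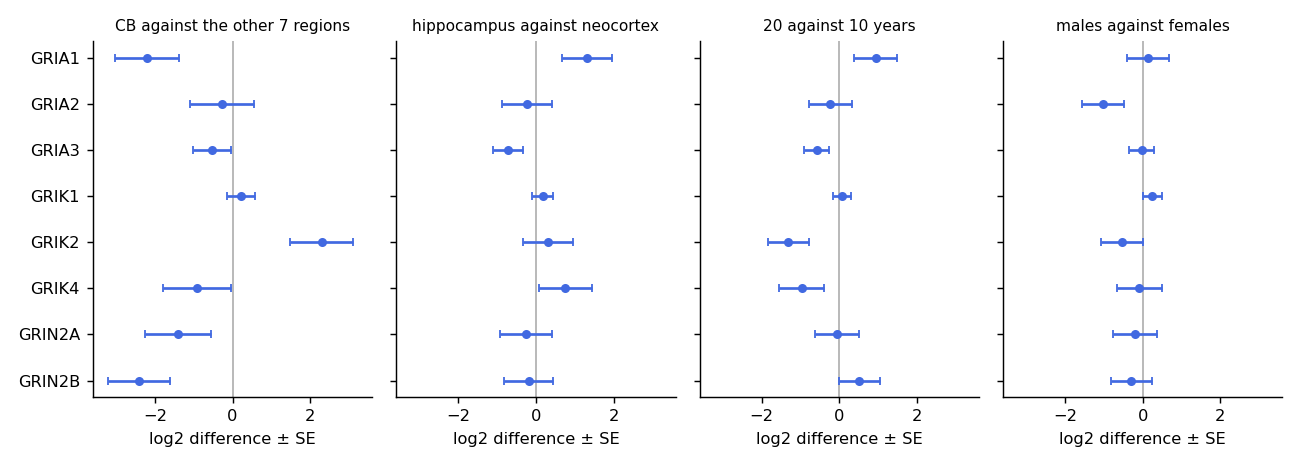
Log2 difference with its SE (horizontal axes) for the summed circRNAs of the 8 receptor genes tested, in 4 comparisons over all 32 libraries. GRIK2 at 2.30 and GRIN2B at -2.42 in CB lie furthest from 0, and no gene passed an adjusted p of 0.05 in any panel.

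Age was the question the study set out to answer, with 16 libraries at 10 years and 16 at 20. None of the 8 receptor genes was called by limma, against 0.0184% of host genes, and 1 had an unadjusted p under 0.05. None of the 21 receptor circRNAs was called, against 0.00587% of all circRNAs, and 1 had an unadjusted p under 0.05. Over all features, 326 of 5425 host genes and 776 of 17050 circRNAs had an unadjusted p under 0.05. GRIK2 gave the unadjusted result among the receptor genes. It ranged from 0 to 131 TPM at 10 years with a median of 16.1 and from 0 to 61.9 TPM at 20 years with a median of 4.66, so the ages overlapped. It was above 0 in 14 of 16 libraries at 10 years and 10 of 16 at 20. The log2 difference was -1.31 (SE 0.54, limma adjusted p = 0.791), and -1.65 without the 5 libraries that stood apart (adjusted p = 0.726). GRIK4 averaged 25.5 ± 26.9 TPM at 10 years and 7.68 ± 7.92 at 20 (SD, n = 16 each), with an adjusted p of 0.827 by limma, and the log2 difference of -0.96 was the same without the 5 libraries that stood apart (adjusted p = 0.874). Of the 5 libraries that stood apart, 4 were at 20 years. With them, GRIA1 averaged 13.3 ± 16.1 TPM at 10 years and 31.9 ± 41.6 at 20 (SD, n = 16 each), a log2 difference of 0.94 (limma adjusted p = 0.827). Without all 5, the means were 14.0 ± 16.4 (SD, n = 15) and 16.5 ± 17.4 (SD, n = 12), and the log2 difference was 0.43 (limma adjusted p = 0.920).

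Sex gave no call either. None of the 8 genes was called by limma, and 0% of host genes were, and none of the 8 had an unadjusted p under 0.05. None of the 21 circRNAs was called, against 0.0176% of all circRNAs, with 2 at an unadjusted p under 0.05. These were the leading circRNAs of GRIN2A and GRIA2. Over all features, 331 of 5425 host genes and 798 of 17050 circRNAs had an unadjusted p under 0.05. The GRIA2 gene was above 0 in 10 of 16 female and 7 of 16 male libraries, at 13.0 ± 14.5 and 3.13 ± 4.20 TPM (SD), and did not pass (limma adjusted p = 0.812). Without the 5 libraries that stood apart its log2 difference between males and females was -1.42 (limma adjusted p = 0.717), and it was -1.02 with them. Each sex, like each age, rests on 2 pools of animals.

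Correlations among the receptor genes were weak. Over their 36 pairs the Spearman correlation of summed TPM across the 32 libraries ran from -0.45 to 0.42 with a median of 0.023. The highest was that of GRIA4 and GRIK2. Against the 1444 host genes found in at least 24 libraries, the closest to GRIA1 were DNCI1 at 0.71 and ROBO2 at 0.69, and the closest to GRIK2 were ERO1L at 0.64 and USP13 at 0.59. For GRIK4 they were IFT52 and ACVR2A, both at 0.57. For GRIN2B they were DZIP1 at 0.53 and TIPIN at 0.52, and for GRIN2A PNN at 0.52 and TM2D1 at 0.51. For GRIA2 they were STX8 at 0.47 and TBCD at 0.46. The values for GRIA3 (ATRNL1 and ANKRD32), GRIA4 (ABCA3 and CECR2) and GRIK1 (DMXL1 and TAOK1), at 0.45 to 0.55, rest on 7, 3 and 4 libraries above 0. The points of these correlations share library and depth, so they are descriptions only.

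In the hippocampal comparison, 1 of the 24 synaptic partner genes was called by limma, as lower in hippocampus, where 0.995% of all host genes tested were called lower. DLGAP3, a scaffold that links PSD-95 to SHANK proteins, had 117 ± 67.7 TPM in hippocampus (SD, n = 8) and 311 ± 83.3 in neocortex (SD, n = 20), a log2 difference of -1.66 (SE 0.38, limma adjusted p = 0.00612). Neither age nor sex called any of the 24. Of these, 3 and 2 had an unadjusted p under 0.05, against 326 and 331 of 5425 host genes.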

How the data were processed

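Members and gene lists were chosen with earlier results of these data known. Per the study's methods and processing notes, the authors trimmed reads with cutadapt, aligned them with BWA to the rhesus macaque genome (build not given in the sources used here) and called circRNAs with CIRI2 from at least 2 junction reads. The methods describe division by a size factor, whereas the deposited values are named TPM and their columns sum to different totals. All 32 columns matched a library title. Back-splice reads were recovered by dividing by the step of each library (100% of values whole within 0.02 TPM).

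The study filter (at least 30 reads in all, or 3 or more reads in 2 libraries of each of 2 areas, or in 2 libraries of 1 area and 6 libraries in all) kept 17050 circRNAs. TPM was summed per host symbol, and 5425 hosts with at least 30 reads were tested. limma 3.58.1 (R 4.3.3) with a mean-variance trend was fitted to log2(TPM + 2.455) with region, age and sex as terms. The pseudocount is the middle of the 32 lowest listed values, 1 per library. Differences on this scale understate changes of low genes. The pools pair libraries across regions because the same animals supplied all 8. Deviations from region means correlated at a median of 0.027 within pools and -0.0079 between them. Fits were also run on simulated counts without shared animals, with changes planted in CB alone and among abundant features. Sparse genes and the pairing of pools were not covered by that run.

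Text names the 9 gene sums, the leading circRNA of each gene, up to 5 called circRNAs per direction (none was), the 2 hosts most like each gene, and up to 3 called partners per direction. DLG2, NETO2, the second circRNAs of GRIN2B and GRIK4, the 371-base GRIA2 circRNA, the GRIA4 circRNAs and single genes of the marker lists were named after their values were seen. Spread between libraries of pooled animals includes technical spread. PCR duplicates could not be removed, so reads are not independent molecules. Some genes of the partner and marker lists are not reported here.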

Additional observations from a re-analysis of the deposited data

Results flagged for a closer look

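Within each region, the gap between the most extreme library and its nearest neighbour was set against the range of the 4 libraries for every gene with at least 3 libraries above 0, and for the sum of the 9 genes. Of 41 such groups, 4 had a gap over range above Dixon's 95% critical value. That value assumes normally spread data, while these are TPM with zeros and unequal depth. The groups also share reads, so 4 of 41 cannot be set against a chance rate. In CB the sum of the 9 genes was 168 TPM in CB_10F (gap over range 0.973), and GRIK2 alone was 131 TPM there (0.922). CB_10F is the shallowest library, and these sums rest on 9 and 7 reads, the 7 being part of the 9. In CA1 the sum was lowest in CA1_20F, at 67.0 TPM (0.850), the shallowest of the CA1 libraries with 37329 back-splice reads. In OC, GRIA1 was highest in OC_20M, at 12.4 TPM (0.847). The part of depth in these values was not tested. Age and sex effects were also compared between hippocampus, CB and neocortex and with each other. Of 145 such differences over the receptor genes and circRNAs, 0 were called by limma, with 0.719 as the smallest adjusted p. An unadjusted p under 0.05, which chance alone gives in about 1 in 20, was reached by 7. Over all features, each of these comparisons called from 0 to 11 of 17050 circRNAs and from 0 to 4 of 5425 hosts.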

How the results depend on the processing

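Counts of receptor genes or circRNAs called were recomputed 122 times in all, and 116 of these counts stayed at 0. In CB, 1 of the gene sums was called with a pseudocount of 0.2455 or 1 TPM, among hosts above 0 in at least 16 libraries and without the 5 libraries that stood apart. In each of these cases it was GRIN2B, lower in CB, and its adjusted p over 15 alternatives ran from 0.00469 to 0.204. Over all hosts, these settings called, in the same order, 202 of 5425, 242 of 5425, 223 of 2425 and 284 of 5425. With no filter 1 was called, GRIA4, among 268 of 8047 hosts. Against these, voom on the recovered reads called 0 gene sums in any comparison but 5 circRNAs as higher in hippocampus, and the cause was not tested. They were circRNAs of GRIA1 (2), GRIA2, GRIK1 and GRIK4. Leaving out each pool in turn gave counts from 0 to 0 in every comparison. The fit with the pool as a replicate block called 0 of 8 gene sums and 0 of 21 circRNAs in both regional comparisons. Pairing thus changed no regional call among the receptor genes. For age and sex, a fit with a correlation within pools also called 0 of 8 and 0 of 21. It cannot decide how pairing affects age and sex calls, because each pool is 1 combination of age and sex. Over all features, that fit called 27 circRNAs and 10 hosts for age, against 1 and 1 without the correlation. For sex it called 24 and 5, against 3 and 0. With the correlation, unadjusted p values under 0.05 for age rose from 776 to 1428 circRNAs and from 326 to 623 hosts. No conclusion is drawn from these added calls. Of the 15 single differences with an unadjusted p under 0.05, all kept their direction in 219 refits. They had been picked by that p and were refitted on largely the same libraries, so this is no separate support. Added after the data were seen were the fits without CB_10F and the exact permutation tests, which called 0 receptor genes. For GRIA4 the permutation gave the lowest p that its 3 libraries above 0 allowed. For GRIK2 in CB the adjusted p ran from 0.0534 to 0.325. Depth limits all of these: a circRNA under 2 reads is not listed, and for CB_10F that limit is 37.4 TPM per circRNA. Over all features, calls depended more on the pools. In CB, 421 circRNAs and 273 hosts were called, against 209 circRNAs among those above 0 in at least 16 libraries and as few as 198 circRNAs and 165 hosts without 1 pool. In hippocampus, 40 circRNAs and 82 hosts were called, as few as 14 and 20 without 1 pool, 100 circRNAs among those above 0 in at least 16 libraries, and 2198 and 203 by voom. For age and sex no alternative called more than 27 circRNAs or 10 hosts, against at most 3 and 1.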
